A study of Mus musculus with 4 samples.

Results

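Cholesterol and fatty acid synthesis was followed here through 36 genes named as enzymes of the mevalonate, sterol and fatty acid routes or as their controls. Membership was set by gene symbol, and a gene was measured when the array had a probe set carrying exactly 1 symbol. That left 33 members of 22180 genes, namely 5 of 7 mevalonate genes, 11 of 11 sterol genes, 11 of 12 fatty acid genes and 6 of 6 control genes. Acat2, Idi1 and Scd2 had no such probe set. All 33 passed the filter on dim genes described with the methods. The cells were skeletal stem cells (SSCs), the bone-resident progenitors of bone, cartilage and stroma, isolated from mice 4 to 6 weeks old and kept for 48 h in 3D collagen gel. Mmp14-/- cells (Mmp14 knockout, 2 arrays) were compared with Mmp14+/+ cells (wild type, 2 arrays) to screen for transcripts that depend on the gene. Mmp14 encodes MT1-MMP, a membrane-anchored protease that cleaves collagen. The labels do not say how Mmp14 was deleted, how the cells were sorted, or whether the arrays came from separate animals, so the spread behind each p-value is that between these arrays and may be partly technical.

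Cells make cholesterol from acetyl-CoA through mevalonate, isoprenoid diphosphates, squalene and lanosterol, and they make fatty acids from the same acetyl-CoA through malonyl-CoA. Both routes are switched on by the SREBP transcription factors. These precursors sit in the endoplasmic reticulum membrane with their escort SCAP and are held there by INSIG proteins while sterol is plentiful. When sterol falls they are carried to the Golgi, cleaved, and the released factor enters the nucleus, where SREBP2 acts mainly on cholesterol genes and SREBP1 mainly on fatty acid genes.

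The deposited values were log2 intensities. Mmp14 itself read 5.77 and 5.84 log2 on the knockout arrays, against 8.77 and 8.83 on the wild-type arrays. The array medians were 2.32 to 2.37 log2. All 13 stromal markers passed the filter on dim genes, from Cd200 with a lowest value of 2.72 to Col1a1 with a highest of 11.6 log2, and Prrx1 lay between 10.1 and 10.2. Of the 13, 2 fell, 3 rose and 8 were not called, where 5.12% of all tested genes fell and 6.20% rose. Of 7 macrophage and leukocyte markers, 4 passed the filter and none was called (1 lower and 0 higher at an unadjusted p below 0.05 by limma). Cd68 was the brightest of them at 4.38 to 4.73 log2, the pan-leukocyte gene Ptprc lay between 1.51 and 1.86, and the list summed to 17.4 to 18.1 log2 in knockout and 18.5 to 19.2 in wild type. None of the 5 endothelial markers passed the filter, with values between 1.19 and 2.43. Of 4 tested markers of sex, 1 rose, 1 fell and 2 were not called, where 6.20% of all tested genes rose and 5.12% fell. Xist read 9.30 and 9.09 in knockout and 8.45 and 8.48 in wild type. The Y-linked Eif2s3y read 5.19 and 5.40 in knockout and 6.18 and 5.79 in wild type.

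In Mmp14 knockout SSCs, 14 of the 16 measured mevalonate and sterol genes and 5 of the 11 fatty acid genes fell. Of the 33 members, 21 were called lower by limma (adjusted p below 0.05 over 12708 genes), against 5.12% of all tested genes. None was called higher, against 6.20% of all tested genes. At an unadjusted p below 0.05 limma counted 28 members lower, against 13.5% of all tested genes, and 0 higher, against 14.1%. The members' median difference, knockout minus wild type, was −0.69 log2, where the median over all tested genes was −0.0041. Both knockout arrays lay below both wild-type arrays for 29 members, against 29.8% of all tested genes, and above them for 2, against 28.0%. In these bulk samples, fewer cells of a type and less RNA per cell cannot be told apart. Fewer members were called on leaving out any array but wild type replicate 2. The members' median was −0.61 log2 without Mmp14 knockout replicate 1 and −0.63 without wild type replicate 1. It was −0.78 without Mmp14 knockout replicate 2 and −0.83 without wild type replicate 2. The count of 21 was 1 when every probe set of the table, dim ones included, entered a single fit. In that fit 0.338% of all 22180 genes were called lower. With a variance prior that follows intensity it was 10, against 0.843% of all genes.

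**Figure D1:**
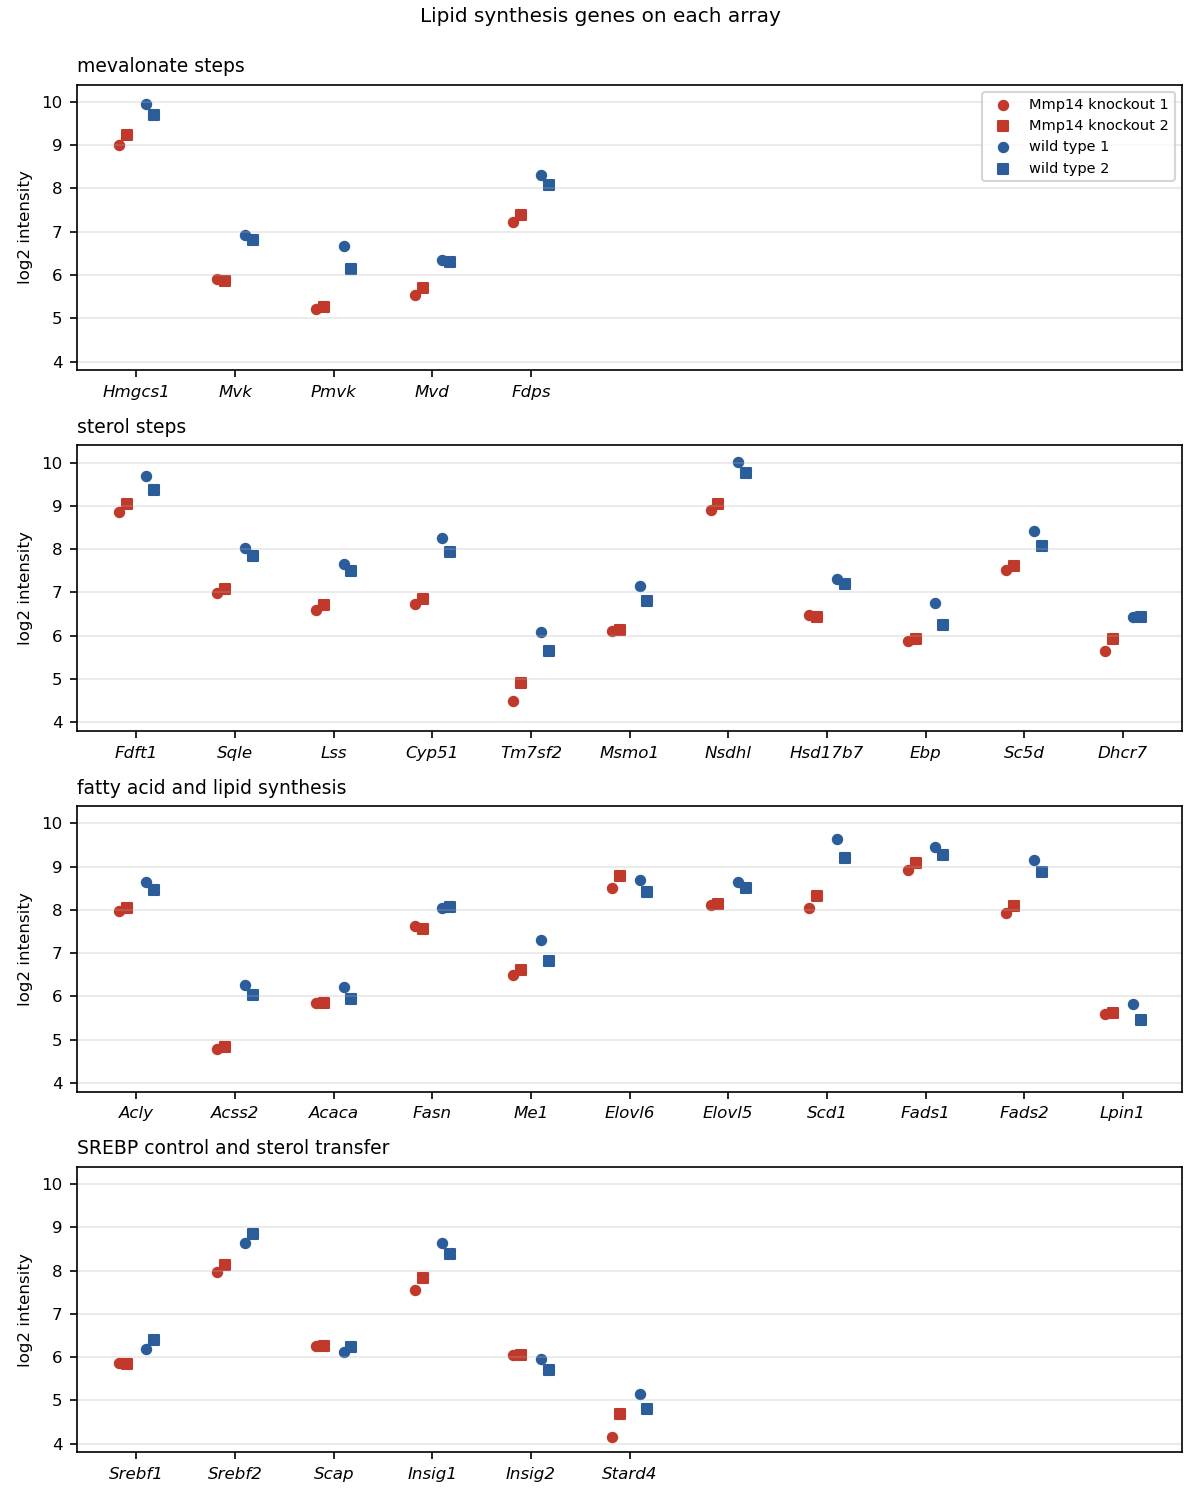
Log2 intensity (vertical axis) of each of the 33 measured genes on the 4 arrays, with Mmp14 knockout in red to the left of wild type in blue, and circles and squares for replicates 1 and 2. In the mevalonate and sterol panels every red point lies below both blue points, while Elovl6 and Lpin1 overlap between groups and Scap and Insig2 lie higher in knockout.

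Because the members moved together, the sequence just before their start sites was read. RefSeq windows of GRCm38.p6 were found for 27 of the 33 members, and the 250 bases before each start were searched on both strands. The windows below belong to the start of the pathway (Hmgcs1), the mevalonate kinase with the most CCAAT boxes among those shown (Mvk), the sterol and fatty acid members with the largest decreases in knockout (Cyp51 and Acss2), and a member that was not called (Elovl6). Capitals mark CCAAT or its reverse ATTGG, the box read by the factor NF-Y, and in Hmgcs1 also the core letters TCACNCCAC of the sterol regulatory element that SREBPs bind.
Hmgcs1, chr13:119690101-119690350, plus strand: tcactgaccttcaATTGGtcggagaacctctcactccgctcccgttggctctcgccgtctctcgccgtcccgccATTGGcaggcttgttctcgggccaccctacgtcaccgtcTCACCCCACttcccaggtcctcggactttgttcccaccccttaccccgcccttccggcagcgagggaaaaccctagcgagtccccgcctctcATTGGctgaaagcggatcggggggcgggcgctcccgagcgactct
Mvk, chr5:114444019-114444268, plus strand: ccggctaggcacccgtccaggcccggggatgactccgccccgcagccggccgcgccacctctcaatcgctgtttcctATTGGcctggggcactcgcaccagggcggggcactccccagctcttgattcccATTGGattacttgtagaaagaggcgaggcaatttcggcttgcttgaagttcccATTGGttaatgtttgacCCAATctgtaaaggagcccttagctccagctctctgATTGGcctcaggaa
Cyp51, chr5:4104698-4104947, minus strand: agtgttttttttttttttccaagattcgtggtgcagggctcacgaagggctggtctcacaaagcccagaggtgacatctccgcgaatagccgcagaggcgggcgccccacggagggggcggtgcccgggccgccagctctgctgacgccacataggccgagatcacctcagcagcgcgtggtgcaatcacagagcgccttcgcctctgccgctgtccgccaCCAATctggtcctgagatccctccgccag
Acss2, chr2:155517793-155518042, plus strand: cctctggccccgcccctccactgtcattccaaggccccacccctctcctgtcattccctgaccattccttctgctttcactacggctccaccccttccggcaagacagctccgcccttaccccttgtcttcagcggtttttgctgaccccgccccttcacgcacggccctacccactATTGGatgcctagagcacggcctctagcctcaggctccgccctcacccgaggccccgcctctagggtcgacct
Elovl6, chr3:129532136-129532385, plus strand: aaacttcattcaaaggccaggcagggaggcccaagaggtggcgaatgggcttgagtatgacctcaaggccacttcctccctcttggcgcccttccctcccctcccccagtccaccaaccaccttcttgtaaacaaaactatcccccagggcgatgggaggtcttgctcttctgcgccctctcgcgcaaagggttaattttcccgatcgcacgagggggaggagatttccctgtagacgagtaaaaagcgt

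Hmgcs1 held the core as TCACCCCAC, beginning 137 bases before its start, with 3 CCAAT boxes, and Mvk held 5 CCAAT boxes. Cyp51 and Acss2 held 1 CCAAT box each, and Elovl6 held none. Over all members with a window, CCAAT was in 21 of 27 (77.8%), against 40.0% of the 9963 tested genes with a window and 37.5% of all 27025 genes in the table. The GC box GGGCGG, read by Sp1-type factors, was also in 21 of 27 members, against 63.4% of tested genes. By call, CCAAT and GGGCGG had the same counts, each in 16 of 18 members called lower and in 5 of 9 not called. The E-box CACGTG was in 6 of 27, against 9.81%, and the sterol core was in 1 of 27, against 1.29%. A gene with several start sites was counted when any of its windows matched, the motifs did not overlap each other in the windows shown, and a match is a string of letters, not a bound site.

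The mevalonate genes turn acetyl-CoA units into isoprenoid diphosphates, and all 5 measured members fell, with a median difference of −0.90 log2. Among all tested genes 5.12% fell. Pmvk, whose enzyme adds the second phosphate to mevalonate, read 5.22 and 5.26 log2 in knockout, against 6.68 and 6.13 in wild type, a difference of −1.16 (SE 0.187, limma adjusted p = 0.0153). Mvk, the kinase before it, read 5.90 and 5.86 in knockout and 6.92 and 6.82 in wild type (−0.99, SE 0.104, limma adjusted p = 0.00412). The knockout arrays of both kinases lay close together, and the wild-type arrays of Pmvk were 0.55 log2 apart. Fdps, which builds farnesyl diphosphate, the branch point to sterols and prenylated proteins, read 7.22 and 7.38 in knockout and 8.32 and 8.08 in wild type (−0.90, SE 0.130, limma adjusted p = 0.0111). Mvd, the decarboxylase that yields isopentenyl diphosphate, read 5.53 and 5.71 in knockout and 6.35 and 6.30 in wild type (−0.71, SE 0.112, limma adjusted p = 0.0146). Hmgcs1, the cytosolic HMG-CoA synthase, read 9.01 and 9.24 in knockout and 9.95 and 9.69 in wild type (−0.70, SE 0.141, limma adjusted p = 0.0309). On the linear scale the 5 genes kept between 44.6% (Pmvk) and 61.5% (Hmgcs1) of the wild-type signal. Mvk, Pmvk and Fdps kept their call whichever array was left out, but Mvd lost it without Mmp14 knockout replicate 1 (adjusted p = 0.0806), and Hmgcs1 without Mmp14 knockout replicate 1 (0.133) or wild type replicate 1 (0.0849).

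The sterol genes carry farnesyl diphosphate through squalene and lanosterol to cholesterol, and 9 of the 11 fell, with a median of −0.86 log2. Of all tested genes, 5.12% fell. Cyp51, the lanosterol demethylase, had the largest difference of the 11: 6.74 and 6.85 log2 in knockout, against 8.25 and 7.92 in wild type (−1.29, SE 0.140, limma adjusted p = 0.00435). Its signal in knockout was 40.8% of that in wild type. Tm7sf2, which encodes a sterol reductase acting just after Cyp51, read 4.48 and 4.91 in knockout and 6.08 and 5.66 in wild type (−1.17, SE 0.200, limma adjusted p = 0.0182). Replicates of Tm7sf2 differed by over 0.4 log2 in each group, and the groups did not overlap. Sqle, the squalene epoxidase, which inserts the first oxygen, read 6.98 and 7.08 in knockout and 8.02 and 7.84 in wild type (−0.90, SE 0.116, limma adjusted p = 0.00765). Lss, which closes the ring to lanosterol, read 6.60 and 6.72 in knockout and 7.66 and 7.49 in wild type (−0.92, SE 0.116, limma adjusted p = 0.00747). These neighbouring steps had differences within each other's SE. Nsdhl, a dehydrogenase that helps to remove methyl groups from the ring, read 8.90 and 9.04 in knockout and 10.00 and 9.76 in wild type (−0.91, SE 0.128, limma adjusted p = 0.0102).

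Of the other sterol genes, Msmo1 (−0.86) and Hsd17b7 (−0.81), which work with Nsdhl on the same methyl groups, and the late enzymes Sc5d (−0.68) and Dhcr7 (−0.63) fell. Fdft1, the squalene synthase that commits carbon to sterols, read 8.86 and 9.05 in knockout and 9.68 and 9.36 in wild type, and at −0.57 it was not called (SE 0.147, limma adjusted p = 0.0624). Ebp, a sterol isomerase, was not called at −0.60 (limma adjusted p = 0.0878), with wild-type arrays at 6.75 and 6.24 beside knockout arrays at 5.87 and 5.92. Groups did not overlap for either gene. Sqle, Lss, Cyp51, Nsdhl and Hsd17b7 kept their call whichever array was left out. Without Mmp14 knockout replicate 1 the call was lost by Msmo1 (adjusted p = 0.0552), Sc5d (0.139) and Dhcr7 (0.144). Without wild type replicate 1 it was lost by Tm7sf2 (0.0513), Sc5d (0.0804) and Dhcr7 (0.0757), without wild type replicate 2 by Dhcr7 (0.0861), and without Mmp14 knockout replicate 2 by Sc5d (0.0777). Nsdhl and Ebp lie on the X chromosome, and the part that the shift of Xist plays in their values was not tested.

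**Figure D2:**
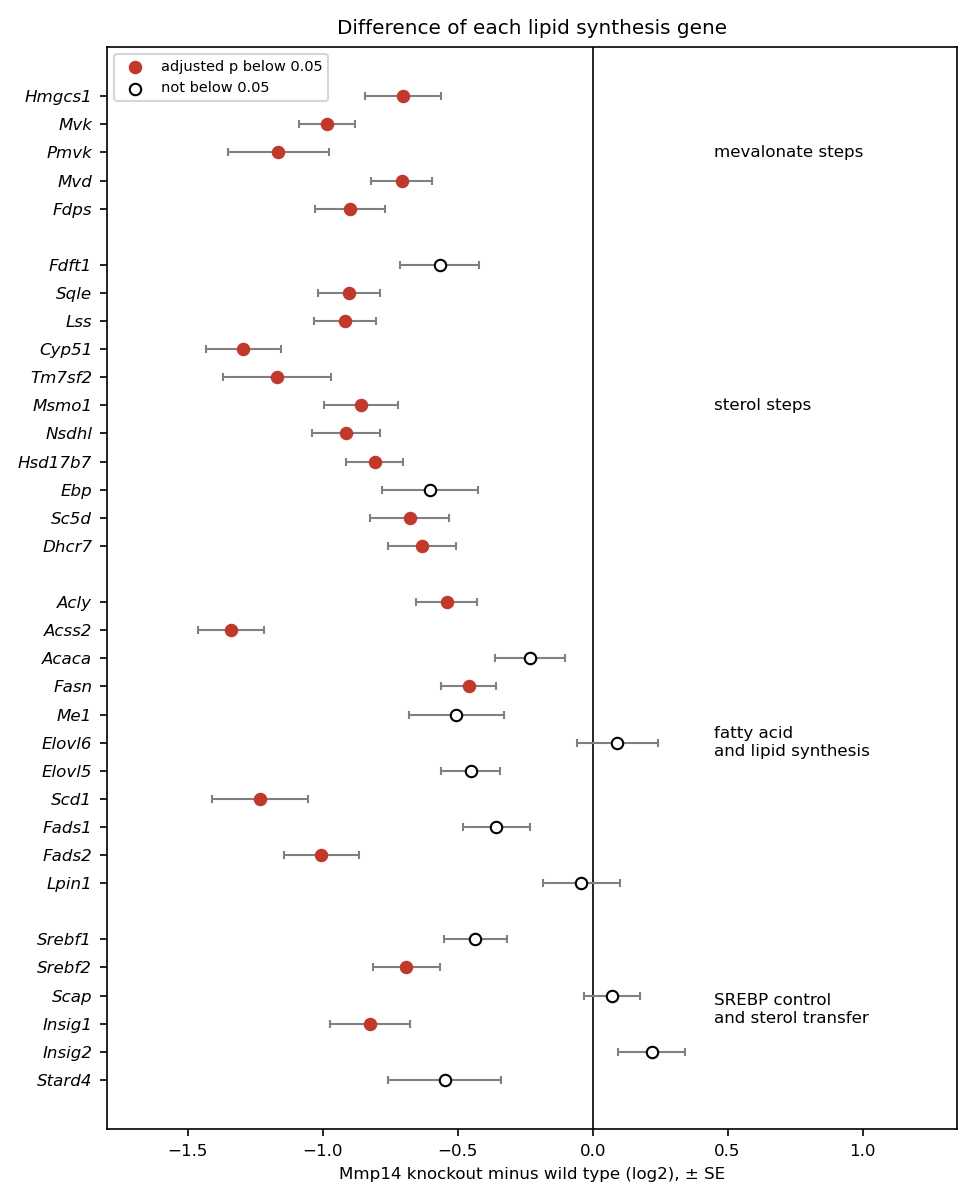
Difference of each gene, Mmp14 knockout minus wild type in log2 with its SE from limma (horizontal axis), in pathway order from top to bottom, filled where the adjusted p was below 0.05. All 16 mevalonate and sterol genes lie left of 0, while the fatty acid genes range from −1.34 (Acss2) to 0.09 (Elovl6).

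Of the fatty acid genes 5 of 11 were called lower and 6 were not called, with a median of −0.46 log2. Over all tested genes 5.12% were called lower. Differences lay below 0 for 10 of the 11, against 50.6% of all tested genes. At an unadjusted p below 0.05 limma counted 8 of the 11 lower and 0 higher, against 13.5% and 14.1% of all tested genes. Acss2, which makes acetyl-CoA from acetate, had the largest difference of all members: 4.78 and 4.84 log2 in knockout, against 6.26 and 6.03 in wild type (−1.34, SE 0.121, limma adjusted p = 0.00246), which left 39.5% of the wild-type signal. Scd1, the stearoyl-CoA desaturase that makes monounsaturated fat, read 8.04 and 8.33 in knockout and 9.63 and 9.21 in wild type (−1.23, SE 0.178, limma adjusted p = 0.0111). Fads2, the first desaturase of polyunsaturated fatty acids, read 7.93 and 8.10 in knockout and 9.16 and 8.88 in wild type (−1.01, SE 0.139, limma adjusted p = 0.00988). These 3 genes kept their call whichever array was left out. Acly, which cuts citrate to acetyl-CoA, read 7.98 and 8.05 in knockout and 8.65 and 8.47 in wild type (−0.54, SE 0.114, limma adjusted p = 0.0354). Fasn, the fatty acid synthase, read 7.62 and 7.55 in knockout and 8.04 and 8.06 in wild type (−0.46, SE 0.101, limma adjusted p = 0.0405). Fasn was called only with all 4 arrays in the fit (adjusted p between 0.0882 and 0.182 with an array left out), and Acly with all 4 or without wild type replicate 2 (0.0951 to 0.161 without any of the others). Neither was called without a filter on dim genes (0.0553 for Acly and 0.0677 for Fasn).

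The other fatty acid genes were not called. Acaca, the acetyl-CoA carboxylase that makes malonyl-CoA, read 5.84 and 5.85 in knockout and 6.22 and 5.94 in wild type (−0.23, limma adjusted p = 0.304). The NADPH source Me1 (−0.51), the elongase Elovl5 (−0.45) and the desaturase Fads1 (−0.36) had knockout arrays below both wild-type arrays without passing the threshold. Elovl6, which extends the product of Fasn, went against the others, with 8.50 and 8.78 in knockout and 8.69 and 8.41 in wild type (0.09, SE 0.151, limma adjusted p = 0.748). Lpin1, a phosphatidate phosphatase, read 5.59 and 5.61 in knockout and 5.82 and 5.47 in wild type (−0.04, SE 0.142, limma adjusted p = 0.885). Groups overlapped for Elovl6 and Lpin1, the only members where they did. The sign of Elovl6 turned to −0.048 without wild type replicate 2 and to −0.047 without Mmp14 knockout replicate 2, and that of Lpin1 to 0.13 without wild type replicate 1.

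Among the control genes 2 of 6 fell and 4 were not called, where 5.12% of all tested genes fell. By limma, 4 of the 6 were lower and 0 higher at an unadjusted p below 0.05, against 13.5% and 14.1% of all tested genes. Srebf2, which encodes the SREBP of cholesterol genes and is itself among its own targets, read 7.97 and 8.13 log2 in knockout, against 8.64 and 8.84 in wild type (−0.69, SE 0.123, limma adjusted p = 0.0214). Insig1, the sterol-responsive anchor and another SREBP target, read 7.55 and 7.83 in knockout and 8.64 and 8.38 in wild type (−0.83, SE 0.148, limma adjusted p = 0.0218). For both genes the knockout arrays lay below the wild-type arrays by more than replicates differed. Srebf1, which encodes the SREBP of fatty acid genes, read 5.87 and 5.84 in knockout and 6.19 and 6.39 in wild type (−0.43, SE 0.116, limma adjusted p = 0.0669). Stard4, a sterol transfer protein, read 4.16 and 4.69 in knockout and 5.14 and 4.80 in wild type (−0.55, SE 0.209, limma adjusted p = 0.156), with the widest replicate gap of the members in knockout. Scap, the escort, read 6.26 and 6.26 in knockout and 6.13 and 6.24 in wild type (0.07, SE 0.105, limma adjusted p = 0.710). Its second, dim probe set gave −0.11, and the mean of both −0.02. Insig2, the anchor that does not depend on SREBP in the same way, read 6.06 and 6.05 in knockout and 5.96 and 5.71 in wild type (0.22, SE 0.123, limma adjusted p = 0.315). Insig1 and Insig2 thus had values on opposite sides of 0, and the difference between them was not tested. Srebf2 lost its call without Mmp14 knockout replicate 1 (adjusted p = 0.102) or wild type replicate 2 (0.0703), and Insig1 without Mmp14 knockout replicate 1 (0.0846) or wild type replicate 1 (0.0643).

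The members also varied together between replicates. Wild type replicate 1 was above wild type replicate 2 for 28 of 33 members, against 56.6% of all tested genes, and Mmp14 knockout replicate 2 was above replicate 1 for 28 of 33, against 51.1%. The median gap was 0.11 log2 between the knockout arrays and 0.25 between the wild-type arrays. Set against each gene's wild-type mean, the members' median was −0.78 and −0.61 on the knockout arrays and 0.13 and −0.13 on the wild-type arrays. The closest pair of arrays from the 2 groups, Mmp14 knockout replicate 2 and wild type replicate 2, still differed by a median of −0.55. In that pair 29 of 33 members were lower in knockout, against 48.3% of all tested genes. The farthest pair, Mmp14 knockout replicate 1 and wild type replicate 1, differed by −0.88, with 31 of 33 lower, against 53.0% of all tested genes. Since the members shift together from array to array, they do not count as 33 separate observations of the genotype. In all, 11 of the 21 calls held whichever array was left out, and 1.90% of all tested genes were lower in that way.

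**Figure D3:**
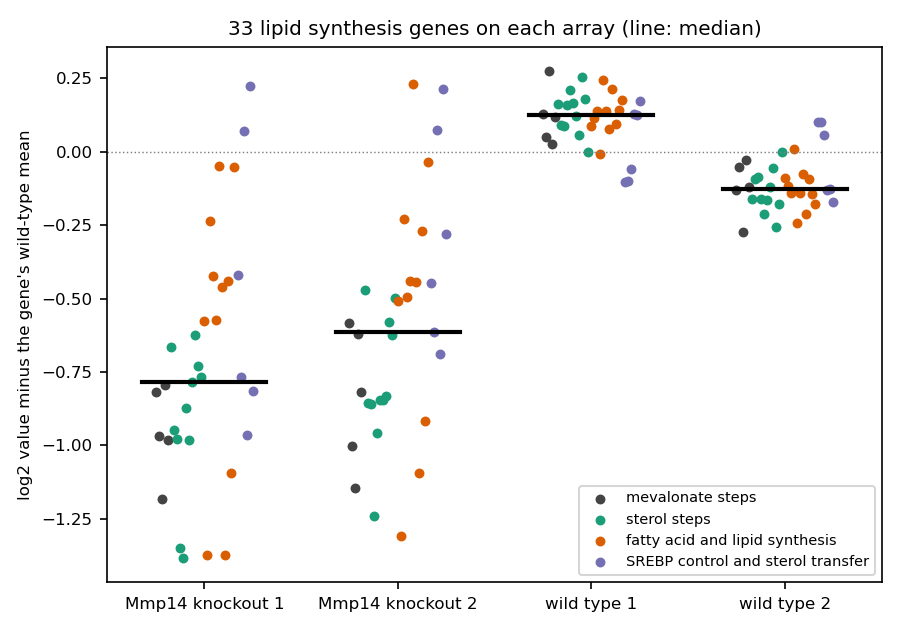
Each point is 1 of the 33 genes on 1 array, as its log2 value minus the mean of that gene's wild-type arrays (vertical axis), coloured by pathway group, with a line at the median. Medians are −0.78 and −0.61 on the knockout arrays and 0.13 and −0.13 on the wild-type arrays, so the wild-type arrays also differ from each other.

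Lists of related genes were set beside the members. Of 22 tested genes of cholesterol uptake, transport and storage, 3 fell, 2 rose and 17 were not called, with a median of 0.06 log2. Among all tested genes 5.12% fell and 6.20% rose. The lipoprotein receptor genes Vldlr (−1.44, limma adjusted p = 0.00245) and Lrp8 (−0.86) and the HDL receptor gene Scarb1 (−1.31) fell. Mylip, whose ubiquitin ligase degrades receptors of the LDL receptor family, rose by 0.79 log2 (limma adjusted p = 0.0218). Apoe, the lipoprotein component, rose by 0.83 and read 4.23 and 3.66 in knockout and 3.12 and 3.10 in wild type. Mylip lost its call without Mmp14 knockout replicate 1 (adjusted p = 0.0866) or wild type replicate 2 (0.0579), and Apoe held its call on leaving out an array only without Mmp14 knockout replicate 2 (0.00871). The cholesterol exporter genes Abca1 (0.31) and Abcg1 (0.26) were not called. Of 13 other genes of SREBP processing none was called, and at an unadjusted p below 0.05 limma counted 3 of the 13 lower and 0 higher, where all tested genes had 13.5% lower and 14.1% higher. They included the proteases that release SREBPs, Mbtps1 (0.06) and Mbtps2 (0.25), and the NF-Y subunits Nfya (0.06), Nfyb (−0.16) and Nfyc (−0.10).

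Of 22 other tested genes of fatty acid synthesis and activation, 4 fell, 1 rose and 17 were not called, with a median of −0.14. The shares over all tested genes were 5.12% lower and 6.20% higher. Mid1ip1, a partner of acetyl-CoA carboxylase, fell by 0.95 log2 (limma adjusted p = 0.00809), and the elongase gene Elovl7 rose by 1.39 (limma adjusted p = 0.0238). Aacs (−0.61), which makes acetoacetyl-CoA, and the mitochondrial citrate carrier gene Slc25a1 (−0.50) were called lower. With an array left out, Slc25a1 was never called (adjusted p between 0.0695 and 0.220), Aacs was called only without wild type replicate 2 (0.0496), and Elovl7 lost its call without Mmp14 knockout replicate 2 (0.0529). In the breakdown route, of 18 tested genes of fatty acid oxidation, 3 rose and 15 were not called, with a median of 0.20 log2. At an unadjusted p below 0.05 limma counted 5 of the 18 higher and 0 lower, against 14.1% and 13.5% of all tested genes. Cpt1a, which admits fatty acids to mitochondria, rose by 0.89 (limma adjusted p = 0.0159), with the thiolase gene Acaa2 (0.81) and the medium-chain dehydrogenase gene Acadm (0.61). The call of Cpt1a was lost without Mmp14 knockout replicate 1 (adjusted p = 0.0565), and Acadm was called with an array left out only when that array was Mmp14 knockout replicate 2 (0.0449).

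Other gene lists moved on the same arrays. Of 17 tested cell cycle genes, 7 fell and 10 were not called, with a median of −0.73 log2, where 5.12% of all tested genes fell. By limma, 14 of the 17 were lower and 0 higher at an unadjusted p below 0.05, against 13.5% and 14.1% of all tested genes. All 17 differences lay below 0. The list summed to between 71.8 and 74.5 log2 on the knockout arrays and between 82.7 and 87.9 on the wild-type arrays. Among the stromal markers, Lepr (−2.26) and Pdpn (−0.51) fell, and Pdgfra (1.77), Cxcl12 (1.81) and Cd200 (1.46) rose. With an array left out, Pdpn was never called (limma adjusted p between 0.0659 and 0.132), and Cd200 lost its call without wild type replicate 1 (0.0739) or wild type replicate 2 (0.0572). The 13 stromal markers summed to between 103.1 and 103.9 log2 on the knockout arrays and between 101.6 and 102.7 on the wild-type arrays. Of the 7 adipocyte markers measured, 5 were tested. Among those 5, 2 rose, 0 fell and 3 were not called, where 6.20% of all tested genes rose and 5.12% fell. Over all 7, dim ones included, 3 had differences above 0 and 4 below 0. Pparg (2.31) and Lpl (0.95) rose, although Lpl missed the threshold without wild type replicate 2 (adjusted p = 0.0526), and the mature fat cell genes Adipoq, Fabp4, Plin1 and Cidec read between 1.66 and 3.11 log2 on every array. The adipocyte list summed to between 22.5 and 22.8 log2 on the knockout arrays and between 18.9 and 19.7 on the wild-type arrays. The part that the cell cycle, the stromal and adipocyte genes and the sex markers play in the lipid synthesis values was not tested.

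**Figure D4:**
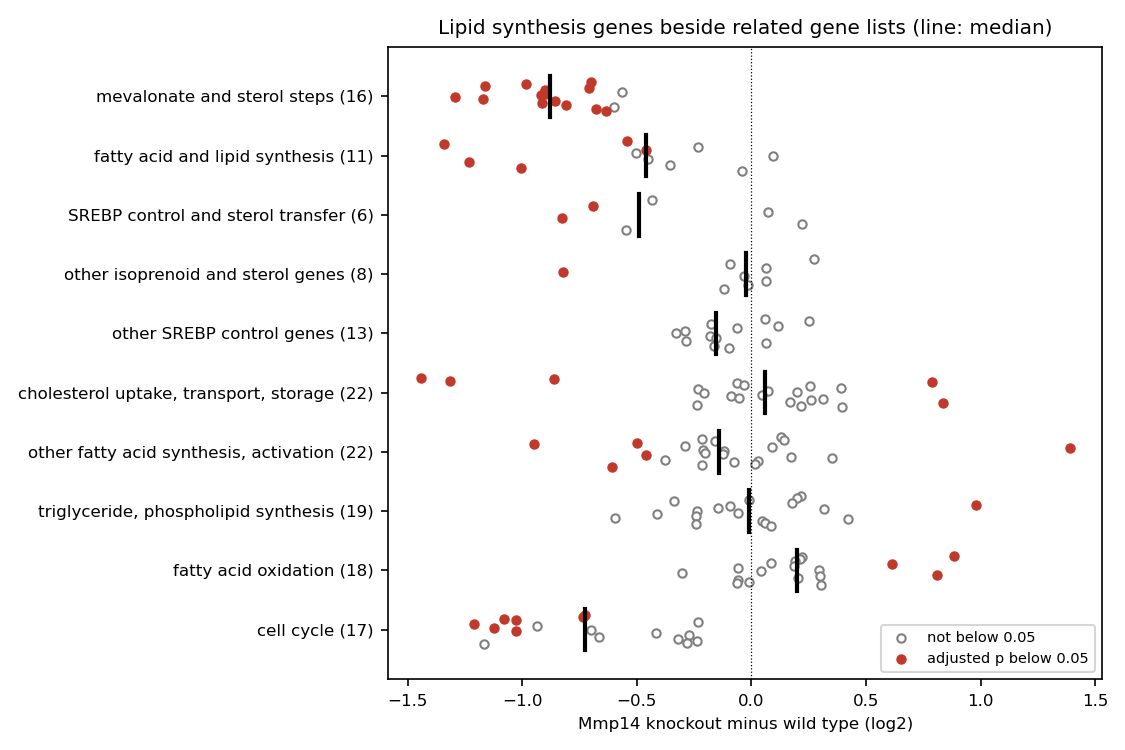
Differences of single genes, Mmp14 knockout minus wild type in log2 (horizontal axis), by gene list with the number of tested genes in brackets, filled red where the adjusted p was below 0.05, with a line at each median. The mevalonate and sterol genes and the cell cycle genes lie left of 0, other SREBP control genes lie near 0, and the oxidation genes have a median of 0.20.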

How the data were processed

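The arrays were 2 of Mmp14 knockout and 2 of wild-type SSCs. Per the labels' protocols, cDNA was amplified from 10 ng of total RNA and labelled with biotin for Affymetrix arrays. The authors deposited log2 intensities for 41345 probe sets. Tools named in the submitters' processing notes are limma and oligo, and the normalization and build are not given in the sources used here. Neither scanner files nor detection calls were used, and the number of arrays limits the precision.

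Symbols came from the supplied platform annotation: 23521 probe sets had 1 symbol, 1814 had several and 16010 had none listed. Each gene was read from its brightest probe set over the 4 arrays. The 12708 genes averaging 2.34 log2 or more, which is the median over rows, were tested. Knockout was compared with wild type in R 4.3.3 with limma 3.58.1 (lmFit, eBayes, two-sided, no block, 2 residual degrees of freedom), adjusted by Benjamini and Hochberg over all tested genes. A gene was called at an adjusted p below 0.05. The fit was first tested on simulated data with 200 of 12708 genes changed. It called 3.13% of the genes changed by 0.5 log2, 76.5% at 1 log2 and 97.7% at 2 log2. Unchanged genes made up 4.88% of its calls. In the data 1439 of 12708 genes were called, and the simulated noise had no shift shared between genes. The simulated shares therefore need not hold for the data. The members, gene lists and motifs were chosen with earlier results of these data known. In each pathway group the 5 called members with the largest differences were named with their values, as were all control genes and members against their group's direction. Related lists give their counts and up to 4 members. Alternatives covered filters, normalization, variance priors, probe set choice, thresholds, a replicate block and leaving out each array. Promoter windows came from RefSeq on GRCm38.p6.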

Additional observations from a re-analysis of the deposited data

How the results depend on the processing

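No member was called higher under any alternative run. The 21 members called lower stayed between 18 and 26 in the next runs, with the share of all genes called lower in brackets. In the main fit that share was 5.12%. Without a filter on dim genes 18 were called (2.20%), and under a stricter one 26 of 32 (11.0%). Quantile normalization (5.49%), median centring (5.55%), array weights (5.08%) and the mean of probe sets (5.03%) gave 21 each. Trend and robust eBayes gave 26 (8.08%), and an adjusted p below 0.1 gave 25 (8.85%). The count was 7 at an adjusted p below 0.01 (1.53%) and 1 with every probe set in 1 fit (0.338%). It was 10 in that fit with trend and robust eBayes (0.843%), which was chosen after seeing the data. The fit of every probe set took in 41345 probe sets in place of 12708 genes, and its variance prior had an SD of 0.14 log2 with 2.72 degrees of freedom, in place of 0.12 with 3.99. Leaving out 1 array gave counts of 12 to 21 and members' medians of −0.83 to −0.61, and the other alternatives gave medians of −0.71 to −0.65. Over all tested genes the same-numbered arrays did not vary together (the correlation of their deviations from group means was −0.04). Among the members, wild type replicate 1 was the higher for 28 of 33, and Mmp14 knockout replicate 2 was the higher for 28 of 33. The replicate block gave 16 members called lower, against 3.55% of all tested genes. The sign of Scap turned to −0.021 with the mean of its probe sets, and leaving out single arrays gave −0.048 to 0.23 for Elovl6 and −0.22 to 0.13 for Lpin1, none of them called. With 2 arrays a group, the number of arrays limits which differences can pass the threshold.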

Other observations

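Of 8 tested genes of the isoprenoid branches and of sterol synthesis outside the members, 1 fell and 7 were not called, with a median of −0.02 log2. For comparison, 5.12% of all tested genes fell. The gene that fell was Erg28 (−0.82, SE 0.105, limma adjusted p = 0.00756), whose protein holds the sterol demethylation enzymes together in the endoplasmic reticulum, and it read 8.20 and 8.29 log2 in knockout and 9.10 and 9.03 in wild type. Ggps1, which extends farnesyl to geranylgeranyl diphosphate, stood at 0.27 without a call (limma adjusted p = 0.168). Fnta (−0.01) and Fntb (−0.12), the subunits of the farnesyl transferase, and Dhdds (−0.03), which starts dolichol synthesis, were not called either.

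Of 19 tested genes of triglyceride and phospholipid synthesis, 1 rose and 18 were not called, with a median of −0.01 log2. Of all tested genes 6.20% rose. At an unadjusted p below 0.05 limma counted 3 of the 19 lower and 3 higher, against 13.5% and 14.1% of all tested genes. Agpat3, an acyltransferase that makes phosphatidic acid, rose by 0.98 (SE 0.143, limma adjusted p = 0.0117) and read 6.31 and 6.14 log2 in knockout and 5.09 and 5.41 in wild type. Dgat2, which completes triglycerides, had a value of −0.41 (limma adjusted p = 0.0521) and Pcyt2, of phosphatidylethanolamine synthesis, one of −0.59 (limma adjusted p = 0.0707).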
